A study of Homo sapiens with 6 samples.

Results

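Transcripts of the ERK feedback and output set are described here in T24 cells treated with siRNAs against circ235. The 10 genes were chosen by name as transcripts that ERK signaling induces, and all 10 are among the 58288 gene identifiers of the count table. They are the phosphatase genes DUSP4, DUSP5 and DUSP6, the inhibitor genes SPRY2, SPRY4, SPRED1 and SPRED2, the transcription factor genes ETV4 and ETV5, and PHLDA1. ETV5 was 1.64-fold higher with si-circ235-1 than with the control siRNA, and PHLDA1 was 1.66-fold higher with si-circ235-2, a difference that went to 0.02 on the log2 scale (edgeR adjusted p = 0.944) after removal of a smooth trend with the length and GC content of transcripts. The siRNAs also differed from each other, with SPRY2 higher and ETV5 lower under si-circ235-2. The remaining 7 genes passed the test in no comparison, though DUSP5, DUSP6 and SPRY4 did once that trend was removed.

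ERK is the last kinase of the RAS, RAF and MEK cascade, which carries signals from growth factor receptors to the nucleus. Active ERK raises transcription of genes that then restrain it. DUSP proteins remove phosphate from MAP kinases, Sprouty proteins interfere with the receptor to RAS step, and SPRED proteins hold neurofibromin at the membrane, where it inactivates RAS. Since these transcripts turn over fast, their levels are widely read as a measure of ERK output, in tumours with RAS or RAF mutations among others. T24 itself is a long established line from a bladder carcinoma and carries an activating HRAS mutation. ERK phosphorylation was not measured in these data.

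The study asked which genes or pathways lie downstream of circ235 (circ_0000235). Its authors study this circular RNA as a sponge for hsa-miR-330-5p in the glycolysis of bladder cancer cells. T24 cells received a control siRNA (NC), si-circ235-1 or si-circ235-2, and 2 libraries labelled as biological replicates were made for each of the 3 conditions. Polyadenylated RNA was sequenced, and circular RNA carries no poly(A) tail, so the knockdown cannot be checked in these counts. Dose and time of the siRNA treatment are not in the labels.

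Library totals lay between 15373992 and 19912893 counts. Replicates of a condition differed by far more than counting noise (chi-square per degree of freedom of 21.7 to 33.3 over genes). Each library was treated as a separate sample because the labels name biological replicates, and the counts cannot show how separate the cultures were. The keratin genes KRT7, KRT8 and KRT18 stood at 619.1 to 2307 CPM, counts scaled to a fixed library total, in every library, while CDH1 did not exceed 0.287 CPM and KRT19 did not exceed 0.0611 CPM. The 6 markers of differentiated urothelium summed to 24.3 to 25.4 CPM in NC, 40.7 to 48.6 CPM with si-circ235-1 and 50.8 to 52.5 CPM with si-circ235-2, of which PPARG gave 22.6 to 51.1 CPM over all libraries, while UPK3A had no count. Of the leukocyte markers, PTPRC and CD3E had no count, and CD14 stood at 2.82 to 2.87 CPM in NC, 9.94 to 11.0 CPM with si-circ235-1 and 1.72 to 2.12 CPM with si-circ235-2. Endothelial and fibroblast markers summed to less than 3 CPM in each library. The 3 mesenchymal markers VIM, CDH2 and ZEB1 summed to 676.1 to 856.4 CPM in NC, 1184 to 1517 CPM with si-circ235-1 and 514.9 to 663.7 CPM with si-circ235-2, and the part of these markers in the results below was not tested.

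All levels below are CPM after scaling of the libraries with TMM, a method that sets the bulk of genes equal across libraries. Tests are edgeR quasi-likelihood tests adjusted by Benjamini-Hochberg over the 14415 genes tested, and a gene is called at an adjusted p under 0.05. All 10 genes passed the filter on low counts. Per kilobase of the longest transcript, DUSP5 was the most abundant of them in NC at 140.3 ± 6.42 CPM (SD, n = 2), ahead of ETV4 at 28.9 ± 7.36. ETV5, SPRY4 and SPRY2 followed at 19.1 ± 1.76, 16.0 ± 2.82 and 15.3 ± 0.921 CPM per kilobase. In this order ETV5 overlapped SPRY4 in its range and SPRY4 overlapped SPRY2, so their ranks are not resolved. PHLDA1 came next at 10.7 ± 0.591, then DUSP6 at 8.40 ± 1.55 and SPRED2 at 7.05 ± 2.37, which overlapped each other. SPRED1 at 2.99 ± 0.541 and DUSP4 at 0.254 ± 0.125 CPM per kilobase were the lowest.

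**Figure D1:**
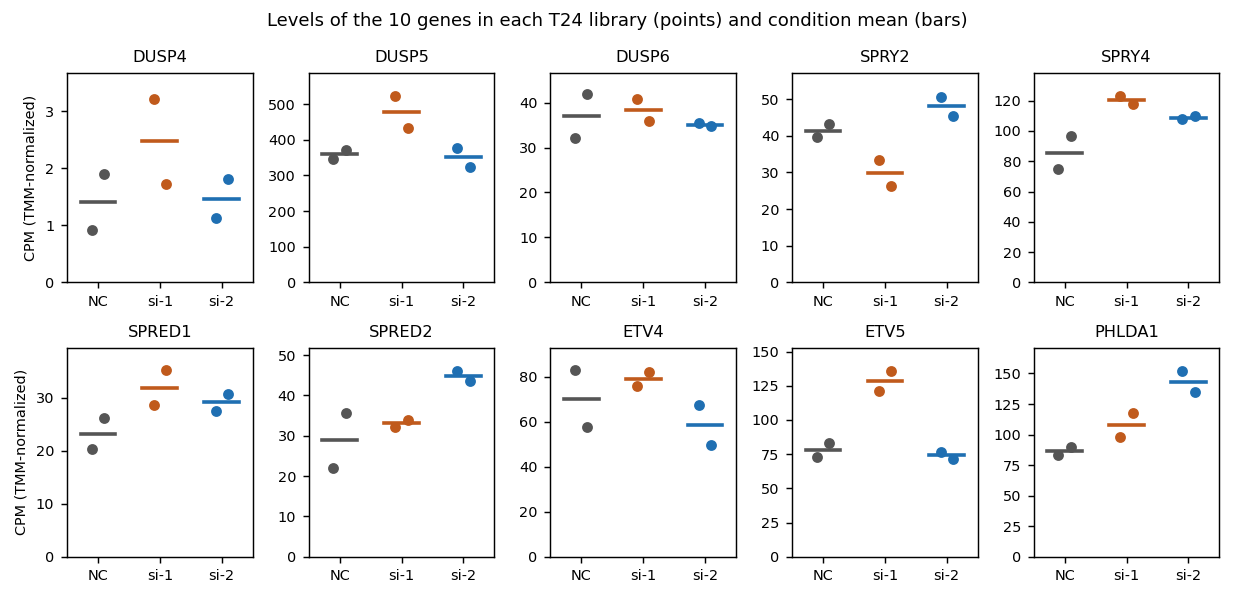
Level of each of the 10 genes in CPM after TMM scaling (vertical axis, from 0) in NC, si-circ235-1 (si-1) and si-circ235-2 (si-2). Points are libraries and bars are the mean of the 2 libraries. ETV5 stands apart in si-circ235-1 (121.4 and 135.8 CPM) and PHLDA1 in si-circ235-2 (152.2 and 134.5 CPM), while the DUSP6 libraries lie between 32.1 and 41.8 CPM in all conditions.

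Among the phosphatases, DUSP6 (ENSG00000139318.7, chr12:89347232-89353271, minus strand, GRCh38) acts in the cytoplasm on ERK and is a commonly used transcript marker of ERK activity. It measured 32.1 and 41.8 CPM in NC, 40.8 and 35.9 CPM with si-circ235-1, and 35.3 and 34.8 CPM with si-circ235-2. Every siRNA library lay between the NC libraries. The log2 fold change was 0.05 (95% interval -0.40 to 0.50, edgeR adjusted p = 0.907) for si-circ235-1 and -0.08 (-0.53 to 0.37, adjusted p = 0.804) for si-circ235-2. With the trend over transcript length and GC content removed, DUSP6 was called lower with si-circ235-2 (-0.62, adjusted p = 0.0151), so its value depends on this setting.

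DUSP5 (ENSG00000138166.5, chr10:110497838-110511544, plus strand) encodes the nuclear ERK phosphatase. It measured 347.1 and 370.4 CPM in NC, 523.1 and 434.2 CPM with si-circ235-1, and 377.8 and 324.6 CPM with si-circ235-2. The si-circ235-1 libraries were above the NC libraries, and the si-circ235-2 libraries lay on either side of them. The log2 fold change of 0.42 ± 0.197 (SE) under si-circ235-1 did not pass the test (edgeR adjusted p = 0.217), nor did -0.03 under si-circ235-2 (adjusted p = 0.924). Between the siRNAs DUSP5 was 0.45 lower on the log2 scale with si-circ235-2, with an unadjusted interval of -0.88 to -0.01 and an adjusted p of 0.0942.

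DUSP4 (ENSG00000120875.8), another nuclear MAP kinase phosphatase, was barely detected, with 14 to 46 counts a library. It measured 0.918 and 1.90 CPM in NC, 3.22 and 1.73 CPM with si-circ235-1, and 1.12 and 1.82 CPM with si-circ235-2. The 3 conditions overlapped in range. At this depth its intervals were wide, from -0.32 to 1.91 on the log2 scale for si-circ235-1 and from -1.07 to 1.20 for si-circ235-2, and a difference of the size seen for ETV5 would not have been detectable.

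SPRED1 (ENSG00000166068.12, chr15:38252326-38357249, plus strand) and SPRED2 (ENSG00000198369.9, chr2:65310851-65432637, minus strand) encode the inhibitors that act with neurofibromin. SPRED1 measured 20.3 and 26.2 CPM in NC, 28.7 and 35.2 CPM with si-circ235-1, and 27.5 and 30.8 CPM with si-circ235-2. All 4 siRNA libraries lay above both NC libraries. The log2 fold changes of 0.46 ± 0.222 and 0.33 ± 0.222 (SE) nevertheless missed the threshold (edgeR adjusted p = 0.227 and 0.288). SPRED2 measured 22.0 and 35.8 CPM in NC, 32.3 and 33.9 CPM with si-circ235-1, and 46.0 and 43.5 CPM with si-circ235-2. The NC libraries of SPRED2 were far apart and enclosed those of si-circ235-1, while those of si-circ235-2 lay above. Its log2 fold change under si-circ235-2 was 0.63 (interval 0.10 to 1.16, adjusted p = 0.0665), and it rested on the NC libraries, at 0.32 (adjusted p = 0.434) without NC replicate 1 and at 1.03 (adjusted p = 0.0148) without NC replicate 2. With the length and GC trend removed it was 0.17 (adjusted p = 0.527).

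SPRY2 (ENSG00000136158.11, chr13:80335976-80340951, minus strand) was the only gene of the set to be lower with si-circ235-1 and higher with si-circ235-2 than with NC in all libraries. It measured 39.6 and 43.2 CPM in NC, 33.3 and 26.2 CPM with si-circ235-1, and 50.6 and 45.4 CPM with si-circ235-2. Neither difference from NC passed the test, with log2 fold changes of -0.48 ± 0.202 (edgeR adjusted p = 0.171) and 0.21 ± 0.200 (adjusted p = 0.445). The direct comparison of the siRNAs did, with SPRY2 1.61-fold higher under si-circ235-2 (interval 1.19 to 2.19, log2 0.69 ± 0.201, adjusted p = 0.0196). It no longer passed when si-circ235-1 replicate 2 (log2 0.52, adjusted p = 0.150) or si-circ235-2 replicate 1 (0.61, adjusted p = 0.0780) was left out.

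SPRY4 (ENSG00000187678.8, chr5:142310427-142326455, minus strand) encodes the other Sprouty inhibitor of the set. It measured 75.0 and 96.4 CPM in NC, 123.1 and 117.6 CPM with si-circ235-1, and 107.9 and 109.7 CPM with si-circ235-2. All siRNA libraries were above the NC libraries, as for SPRED1. The log2 fold changes of 0.49 (interval 0.08 to 0.90, edgeR adjusted p = 0.130) and 0.34 (-0.06 to 0.75, adjusted p = 0.178) did not reach the threshold, and the siRNAs differed by -0.15 (-0.55 to 0.26). With the length and GC trend removed SPRY4 was at 0.58 with si-circ235-1 (adjusted p = 0.0238) and at -0.19 with si-circ235-2 (adjusted p = 0.321), so its direction under si-circ235-2 depends on this setting.

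SPRY4 and ETV4 are the only members whose longest annotated 3′ UTR holds the word that pairs with the seed of hsa-miR-330-5p, and for that reason their sites are shown. The capitals mark nucleotides 2 to 8 of the miRNA (RefSeq, GRCh38.p14, chr19:45639049-45639070, minus strand) and the complementary word CCCAGAG in the sites (GENCODE 29 transcripts on GRCh38, minus strand). The SPRY4 site lies at chr5:142311199-142311222 and the ETV4 site at chr17:43528020-43528043.
hsa-miR-330-5p: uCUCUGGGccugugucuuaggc
SPRY4 3′ UTR: caaagccctCCCAGAGaaaagatt
ETV4 3′ UTR: ctctgtgttCCCAGAGgcaggcgg
Of 12143 tested genes with a 3′ UTR, 20.5% hold at least 1 such word, and of 8589 genes with a UTR at least as long as the shortest among the members (675 nt), 26.1% do. The 2 of 10 members with a match are thus near the background share. Neither SPRY4 nor ETV4 was called in any comparison of the reported fit, and SPRY4 was called with the length and GC trend removed, higher with si-circ235-1 than with NC (0.58, edgeR adjusted p = 0.0238) and lower with si-circ235-2 than with si-circ235-1 (-0.76, adjusted p = 0.00222).

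ETV5 (ENSG00000244405.7, chr3:186046308-186110318, minus strand) and ETV4 (ENSG00000175832.12, chr17:43527844-43579620, minus strand) are ETS transcription factors of the PEA3 group, which carry the ERK signal to further genes. ETV5 measured 73.2 and 83.4 CPM in NC, 121.4 and 135.8 CPM with si-circ235-1, and 76.8 and 71.8 CPM with si-circ235-2. Both si-circ235-1 libraries stood above all 4 others, and the si-circ235-2 libraries overlapped NC. ETV5 was 1.64-fold higher with si-circ235-1 than with NC (interval 1.25 to 2.15, log2 0.72 ± 0.177, edgeR adjusted p = 0.0427). It did not pass the test with si-circ235-2 (log2 -0.08, interval -0.47 to 0.31, adjusted p = 0.777), and the siRNAs differed from each other at this gene (log2 -0.79 ± 0.177, adjusted p = 0.00568).

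The call of ETV5 for si-circ235-1 depended on the setting. It was lost when any library of the 2 conditions was left out. The log2 fold changes were then 0.62 and 0.85 without NC replicates 1 and 2, and 0.79 and 0.63 without si-circ235-1 replicates 1 and 2. Calls over all genes also fell in those fits, so the loss is not particular to ETV5. DESeq2 called ETV5 (0.74, adjusted p = 0.00804), and without TMM factors it was 0.63 with an edgeR adjusted p of 0.0848. The difference of ETV5 between the siRNAs was called with each of the 6 libraries left out, and not without TMM factors (-0.46, adjusted p = 0.0801).

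ETV4 measured 82.9 and 57.6 CPM in NC, 75.9 and 82.1 CPM with si-circ235-1, and 67.4 and 49.7 CPM with si-circ235-2. The NC libraries spanned most of the range of the others. Its log2 fold changes were 0.17 (edgeR adjusted p = 0.686) and -0.26 (adjusted p = 0.405). ETV4 shares genomic positions with DHX8 on the opposite strand, which had 4622 counts over the 6 libraries against 6944 for ETV4, and without strand information their reads cannot be told apart where they overlap. For the other members, genes that overlap them had at most 82 counts in all.

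PHLDA1 (ENSG00000139289.13, chr12:76025447-76033932, minus strand) encodes a pleckstrin homology-like domain protein and is a member of published transcript sets of MAPK activity. It measured 82.9 and 89.7 CPM in NC, 97.9 and 118 CPM with si-circ235-1, and 152.2 and 134.5 CPM with si-circ235-2. The conditions did not overlap, with si-circ235-2 the highest and NC the lowest. PHLDA1 was 1.66-fold higher with si-circ235-2 than with NC (interval 1.26 to 2.20, log2 0.73 ± 0.183, edgeR adjusted p = 0.0130). With si-circ235-1 the log2 difference was 0.32 (-0.08 to 0.73, adjusted p = 0.300), and the difference between the siRNAs of 0.41 did not pass the test (adjusted p = 0.0964). Leaving out NC replicate 1 (0.67, adjusted p = 0.104) or si-circ235-2 replicate 1 (0.64, adjusted p = 0.0730) ended the call for si-circ235-2. So did removal of the length and GC trend, which left PHLDA1 at 0.02 (adjusted p = 0.944). In a bulk library a change in RNA per cell and a change in the share of cells with the transcript cannot be told apart.

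**Figure D2:**
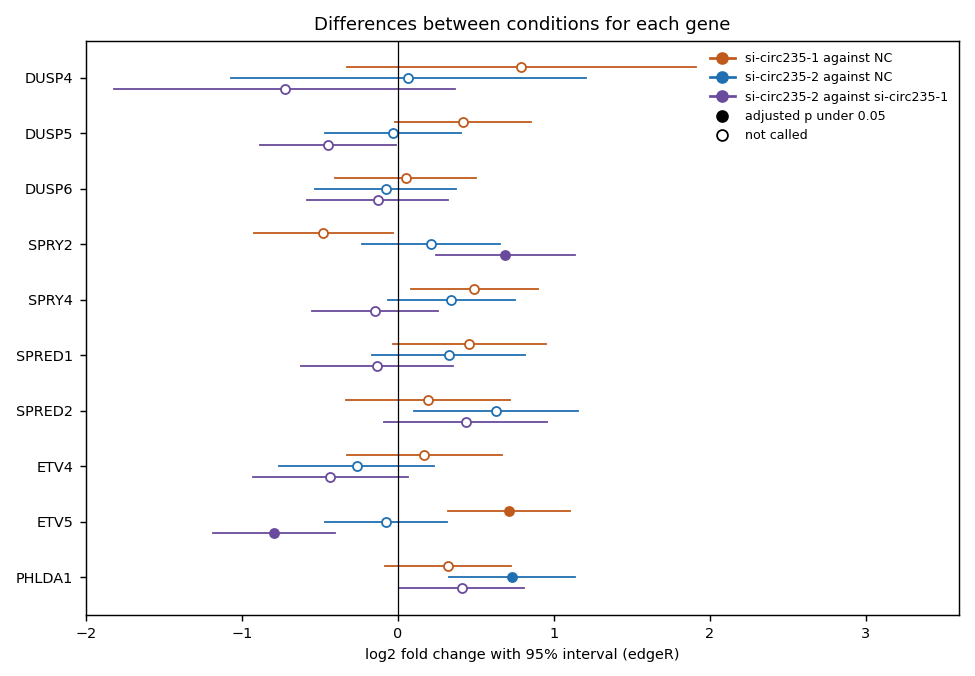
Log2 fold change of each gene (horizontal axis) in 3 comparisons, with 95% intervals from edgeR that are not adjusted for multiple tests. Filled points are called at an adjusted p under 0.05, and these are ETV5 in si-circ235-1 against NC (0.72), PHLDA1 in si-circ235-2 against NC (0.73), and SPRY2 (0.69) and ETV5 (-0.79) between the siRNAs.

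As a group, 1 of the 10 genes was called for si-circ235-1 against NC, where 5.88% of all tested genes were called and 2.24% were called higher. For si-circ235-2 against NC 1 of 10 was called, where 31.4% of all genes were called and 15.7% called higher. Between the siRNAs 2 of 10 were called, 1 in each direction, beside 39.7% of all genes (21.1% higher and 18.6% lower). The comparisons with NC share the NC libraries.

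By direction, 9 of the 10 genes had a positive log2 fold change under si-circ235-1, against 47.3% of all genes, with a median of 0.37 over the 10 and -0.03 over all genes. Without TMM factors 8 of 10 were positive with a median of 0.29, and with the length and GC trend described below removed 9 of 10 were, with a median of 0.43. In 5 genes both si-circ235-1 libraries were above NC and in SPRY2 both were below, and 55% of all genes likewise had groups that did not overlap. At an unadjusted p under 0.05 there were 3 of the 10 genes, beside 3644 of all 14415 genes tested. Under si-circ235-2, 6 of 10 were positive (49.8% of all genes) with a median of 0.14, and 5 did not overlap NC (71.4% of all genes), all of them higher. Without TMM factors all 10 were positive under si-circ235-2, and with the trend removed 6 of 10 were with a median of 0.02, so their direction depends on the scaling. Between the siRNAs 3 of 10 were positive (51.5% of all genes) and 8 did not overlap (72.1%), with a median of -0.14. That median turned to 0.20 without TMM factors and was -0.40 with the trend removed, when 1 of 10 was positive.

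Fold changes varied with transcript length and GC content. For si-circ235-2 they followed length. Median log2 fold changes against NC rose from -0.57 in the shortest of 4 equal groups of genes by transcript length to 0.45 in the longest, while those of si-circ235-1 lay between -0.09 and 0.02. Over GC content both siRNAs showed a trend, from 0.13 to -0.26 for si-circ235-1 between the lowest and the highest of 4 equal groups, and from 0.30 in the group next to the lowest to -0.45 in the highest for si-circ235-2. No ERK gene falls in the shortest group and 4 of 10 fall in the longest. Replicates of 1 condition differed along length as well, with medians of replicate 2 minus replicate 1 of -0.25 and 0.14 in the shortest and longest group in NC. When a smooth trend over length and GC content was taken out of each library, the calls of the set changed.

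With that trend removed, si-circ235-1 had 3 called genes, beside 13.7% of all genes, and all 3 were higher than NC: ETV5 (log2 0.79, edgeR adjusted p = 0.00944), DUSP5 (0.66, adjusted p = 0.0148) and SPRY4 (0.58, adjusted p = 0.0238). For si-circ235-2 PHLDA1 was at 0.02 (adjusted p = 0.944), the trend at its length and GC content being 0.72. Instead DUSP6 (-0.62, adjusted p = 0.0151) and ETV5 (-0.55, adjusted p = 0.0199) were called lower than NC, beside 25.9% of all genes called. Between the siRNAs 5 genes were called, beside 40.4% of all genes, ETV5 (-1.34), SPRY4 (-0.76), DUSP6 (-0.70) and DUSP5 (-0.49) lower and SPRY2 (0.45) higher with si-circ235-2. ETV5 between the siRNAs and SPRY2 between the siRNAs kept their direction and their call in this fit, and among all settings DUSP6 was called only where this trend was removed.

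**Figure D3:**
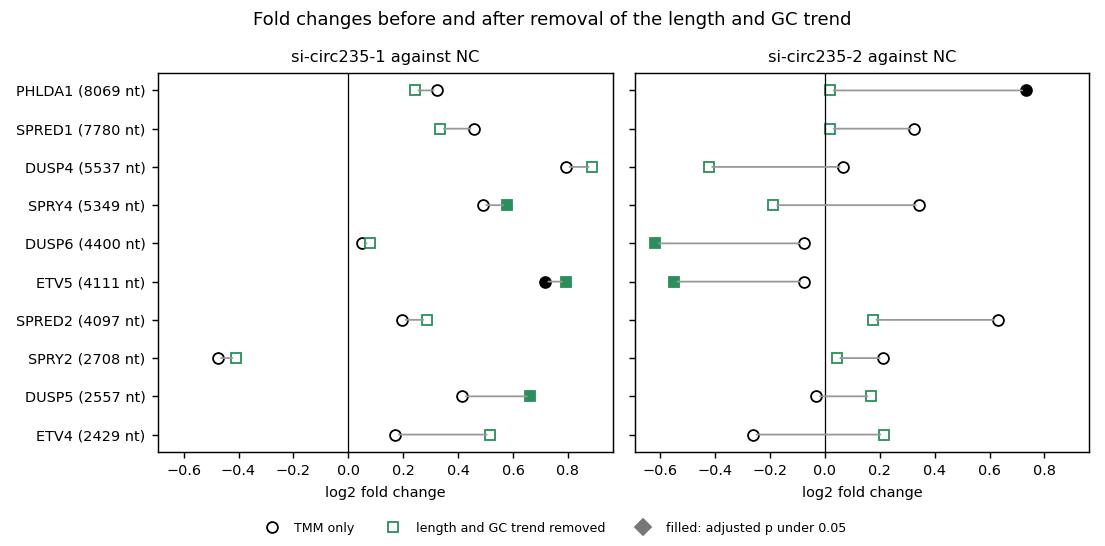
Log2 fold change of each gene against NC (horizontal axis) before (circles) and after (squares) removal of the trend over transcript length and GC content, with genes ordered by the length of their longest transcript. Filled symbols are called. Under si-circ235-2 PHLDA1 moves from 0.73 to 0.02 and DUSP6 from -0.08 to -0.62, while under si-circ235-1 ETV5 moves from 0.72 to 0.79.

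Promoter windows from RefSeq (GRCh38.p14, 250 bases before to 50 after a start) were at hand for 6 members, DUSP6, SPRY2, SPRY4, SPRED1, SPRED2 and PHLDA1, as 9 windows. ETS factors and AP-1 are the main nuclear routes of ERK output, so their core words were searched on both strands. The ETS core CCGGAA was in 2 of 9 windows, against 17.2% of all 35116 windows, 1 of PHLDA1 and 1 of SPRY2. Capitals mark the word, which starts 89 bases before the start of PHLDA1 on the other strand (chr12:76031850-76031875) and 142 bases before a start of SPRY2 (chr13:80341253-80341278), both on the minus strand.
PHLDA1 promoter: ggagaggagtTTCCGGggctcgggtc
SPRY2 promoter: cctgcctcctCCGGAAaggcgagggc
The AP-1 word TGANTCA was in 1 of 9 windows, that of a start of SPRED2, against 7.7% of all windows, and the CRE word TGACGTCA was in 0 of 9 against 1.8%. A matching word is no evidence of binding.

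Close relatives of the members were called in small numbers. Of 13 family members tested, 0 were called for si-circ235-1 in the reported edgeR fit, beside 5.88% of all genes. At an unadjusted p under 0.05 there were 3 of 13, beside 3644 of all 14415 genes tested. SPRY1 (log2 -0.23), SPRED3 (-0.21), ETV1 (0.32), DUSP7 (0.29) and DUSP1 (-0.77, edgeR adjusted p = 0.0504) were among those that missed the threshold. Settings differed here. DESeq2 called 2 of 13, DUSP1 (-0.75, adjusted p = 0.0255) and PHLDA2 (0.88, adjusted p = 0.0404), beside 1335 genes in all. With the trend removed edgeR called 3, these and DUSP7 (0.59, adjusted p = 0.0338), beside 13.7% of all genes. Without the filter on low counts and with 2 conditions alone edgeR also called DUSP1 (adjusted p = 0.0364 and 0.0238) and PHLDA2 (adjusted p = 0.00505 and 0.0127). With the replicate block DUSP1 was called (edgeR adjusted p = 0.0444). For si-circ235-2, 3 of 13 were called, or 23.1% beside 31.4% of all genes. DUSP7, a cytoplasmic ERK phosphatase, was higher (0.86, adjusted p = 0.0137). The PHLDA1 relatives PHLDA2 (-1.57, adjusted p = 0.00503) and PHLDA3 (-1.12, adjusted p = 0.0113) were lower, the opposite direction to PHLDA1 in this fit. With the trend removed PHLDA2 (-0.68, edgeR adjusted p = 0.0329) and PHLDA3 (-0.74, adjusted p = 0.0413) were smaller and still called. PHLDA1 was then at 0.02 (adjusted p = 0.944). Between the siRNAs 4 of 13 were called (30.8% beside 39.7% of all genes), with PHLDA2 (-2.43) and PHLDA3 (-1.42) lower and DUSP14 (1.46) and DUSP1 (1.04), an early induced nuclear phosphatase, higher with si-circ235-2.

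The fall of PHLDA2 ran from 83.4 and 45.4 CPM in NC to 27.1 and 16.4 CPM with si-circ235-2, while it measured 105.5 and 127.7 CPM with si-circ235-1. NC replicate 1 was the highest of its group for PHLDA2 and for PHLDA3. Without NC replicate 1 the calls of PHLDA2 (-1.07, edgeR adjusted p = 0.0630), PHLDA3 (-0.65, adjusted p = 0.143) and DUSP7 (0.80, adjusted p = 0.113) against NC were lost, and leaving out si-circ235-1 replicate 1 took away that of DUSP14 between the siRNAs (1.29, adjusted p = 0.0678).

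Other transcripts known to rise with ERK activity were led by EREG, which encodes the EGF receptor ligand epiregulin. EREG measured 66.4 and 78.0 CPM in NC, 159.2 and 248.1 CPM with si-circ235-1, and 163.4 and 189.0 CPM with si-circ235-2. All 4 siRNA libraries were above both NC libraries, by 2.82-fold for si-circ235-1 (log2 1.50 ± 0.232, edgeR adjusted p = 0.0104) and 2.44-fold for si-circ235-2 (1.29 ± 0.231, adjusted p = 0.00369). Of 12 such genes tested of 13 listed (EPHA4 was not tested), EREG was the only 1 called for si-circ235-1, which is 8.33% beside 5.88% of all genes. With the trend removed 5 of 12 were called, beside 13.7% of all genes. For si-circ235-2 there were 4 (33.3% beside 31.4%), with the early response genes IER3 (0.94, adjusted p = 0.00736) and EGR1 (0.76, adjusted p = 0.0328) also higher and the AP-1 subunit gene FOSL1 lower (-0.77, adjusted p = 0.0192). Between the siRNAs 5 of 12 were called (41.7% beside 39.7% of all genes), and 8 of 12 with the trend removed, beside 40.4% of all genes. Among the 5 were IER2 (-1.46), EGR1 (1.23) and FOSL1 (-1.02), and these classical ERK output genes did not share a direction.

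Without NC replicate 1 the calls of this list against NC were lost, while the directions stayed. EREG was then at 1.38 for si-circ235-1. For si-circ235-2 EREG was at 1.17, IER3 at 0.70, EGR1 at 0.82 and FOSL1 at -0.66. Calls over all genes also fell in that fit, so the loss is not particular to this list. Leaving out si-circ235-1 replicate 2 ended the call of EREG for si-circ235-1 too (1.14). EGR1 was also lost without NC replicate 2 (0.70) or si-circ235-2 replicate 1 (0.62), and FOSL1 without si-circ235-2 replicate 2 (-0.61). With the length and GC trend removed EREG, IER3 and EGR1 stayed called and higher, and FOSL1 was at -0.19 (adjusted p = 0.325).

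Of the 23 pathway components from receptor to nuclear targets, 3 were called for si-circ235-1 (13.0% beside 5.88% of all genes). NRAS, a RAS gene, was higher (log2 0.93, edgeR adjusted p = 0.0271), and SOS2, a RAS exchange factor (-1.20, adjusted p = 0.0318), and CIC, a repressor that ERK relieves (-1.04, adjusted p = 0.0336), were lower. NRAS and SOS2 each lost the call without any of the 4 libraries compared, with adjusted p of 0.0617 to 0.194 and 0.0952 to 0.199. CIC lost it without NC replicate 1 (-1.09), NC replicate 2 (-0.95) or si-circ235-1 replicate 2 (-0.70). With the length and GC trend removed NRAS, SOS2 and CIC stayed called for si-circ235-1, beside 13.7% of all genes. SOS1 (-0.68) was then called lower, and PTPN11 (0.60), HRAS (0.68), MAP2K2 (0.90) and RPS6KA1 (0.75) higher, as seen after their values were known. NRAS was also called for si-circ235-2 (1.21, adjusted p = 0.00296), and its level was 82.0 and 101.5 CPM in NC, 173.0 and 176.7 CPM with si-circ235-1, and 185.1 and 240.5 CPM with si-circ235-2.

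For si-circ235-2, 13 of 23 pathway components were called, 9 higher and 4 lower, which is 56.5% beside 31.4% of all genes. With the length and GC trend removed 9 of 23 were called, beside 25.9% of all genes. EGFR, the EGF receptor gene, looked at after its values had been seen, then went from 0.62 (edgeR adjusted p = 0.0277) to -0.19 (adjusted p = 0.295). In the reported fit the largest were the scaffold gene KSR1 (1.51), the phosphatase gene PTPN11 (1.41), which encodes SHP2, and the RAS inactivator NF1 (1.26), all higher. With the trend removed KSR1 (1.08, edgeR adjusted p = 0.0228), PTPN11 (0.89, adjusted p = 0.0048) and NF1 (0.58, adjusted p = 0.0234) were smaller and stayed called. Without NC replicate 1 KSR1 (1.15, edgeR adjusted p = 0.0835) and NF1 (1.09, adjusted p = 0.0865) were not called. Between the siRNAs 15 of 23 were called (65.2% beside 39.7%), 11 higher and 4 lower, led by SHC1 (1.80), SOS2 (1.66) and MAP2K2 (-1.64). MAPK3, which encodes ERK1, and HRAS, the mutated RAS gene of this line, were looked at after their values had been seen. MAPK3 was at -0.74 (adjusted p = 0.0306) and HRAS at -1.19 (adjusted p = 0.00948) with si-circ235-2. With the length and GC trend removed these 2 were not called (-0.25 and -0.20, adjusted p = 0.241 and 0.427), and MAPK3 was not called without TMM factors (-0.46, adjusted p = 0.121). HRAS and MAPK3 also lost the call without NC replicate 1 (-0.74 and -0.42), and MAPK3 without si-circ235-2 replicate 2 (-0.66).

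**Figure D4:**
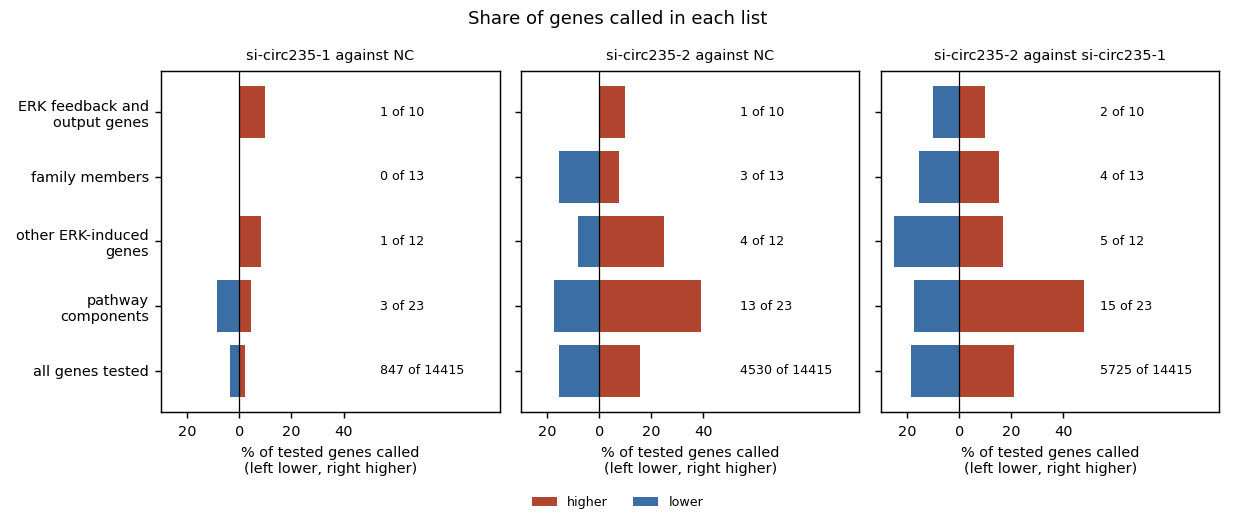
Share of tested genes called lower (left of 0) and higher (right of 0) in percent, for the 10 ERK feedback and output genes, their family members, other ERK-induced genes, pathway components and all genes tested, in each comparison, with counts written beside the bars. The ERK feedback and output genes have 1, 1 and 2 of 10 called, and pathway components 3, 13 and 15 of 23.

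Calls of the set under every setting tried are drawn in the plot of fold changes by setting. ETV5 and SPRY2 kept their direction between the siRNAs in all 13 alternatives, and ETV5 kept it against NC under si-circ235-1. PHLDA1 stayed positive in all 13 for si-circ235-2 but reached 0.02 in both fits with the trend removed. ETV5 was called in 8 of 13 alternatives for si-circ235-1 against NC, PHLDA1 in 9 of 13 for si-circ235-2, and between the siRNAs SPRY2 in 11 and ETV5 in 12.

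**Figure D5:**
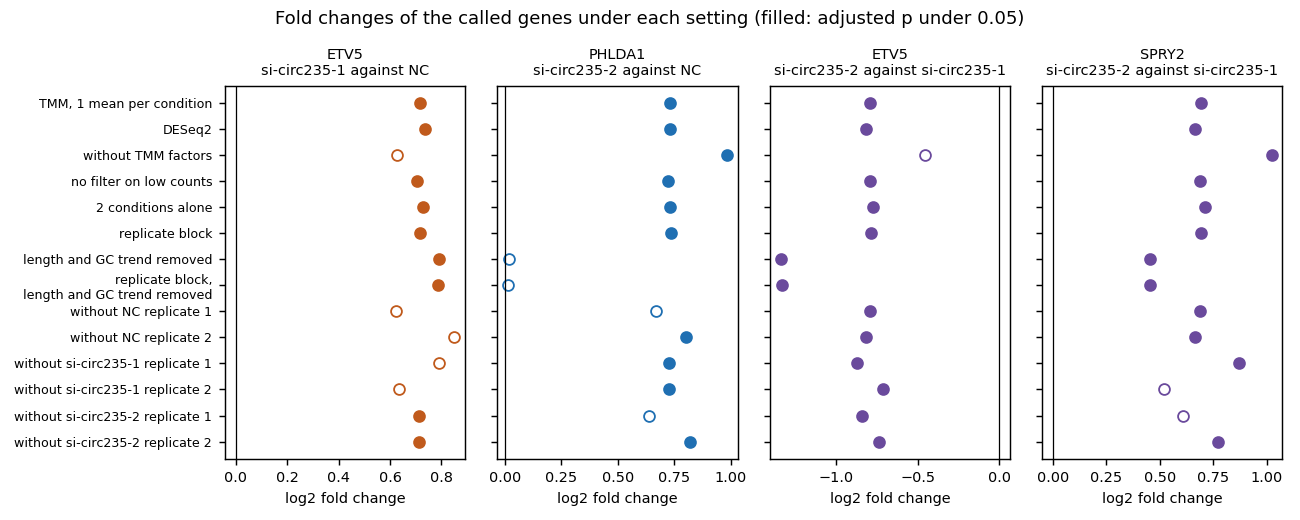
Log2 fold change (horizontal axis) of the genes called in the report under the reported fit (top) and 13 alternatives, filled where the adjusted p is under 0.05. ETV5 for si-circ235-1 against NC stays between 0.62 and 0.85, PHLDA1 for si-circ235-2 ranges from 0.02 to 0.98, ETV5 between the siRNAs from -1.34 to -0.46, and SPRY2 from 0.45 to 1.02.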

How the data were processed

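For 6 T24 libraries the authors deposited gene-level read counts as raw integers. Per the labels, mRNA was enriched on oligo dT beads, FastQC, cutadapt and STAR were used, and the build was hg38. The methods describe sequencing without strand information, so reads from positions shared by genes on opposite strands cannot be separated. The counting tool, its annotation and the versions of these tools were not given in the sources used here. GENCODE 29 (GRCh38) held 99.5% of the identifiers and gave positions, lengths and 3′ UTRs.

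Testing used edgeR 4.0.16 under R 4.3.3, with filterByExpr, TMM factors, 1 mean for each condition in a fit of all 6 libraries, quasi-likelihood tests and Benjamini-Hochberg adjustment at a threshold of 0.05. The fit was tested on simulated data. There were 13 alternatives: DESeq2 1.42.0, library sizes without TMM, all genes with a count, each pair of conditions fitted alone, a block for the replicate number, subtraction of a spline trend (5 degrees of freedom) over length and GC content, known for 99.8% of tested genes, with and without that block, and each library left out. The members, lists and alternatives were chosen with earlier results of these data known. All members were reported. From each list the 3 largest called changes per comparison, genes called under both siRNAs and the closest relatives of members were named. Some listed genes enter the counts of their list and are not reported here by name.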

Additional observations from a re-analysis of the deposited data

How the results depend on the processing

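With 2 libraries per condition the 95% intervals of the members other than DUSP4 reached 0.39 to 0.53 to each side on the log2 scale. These intervals are not adjusted for multiple tests. Smaller changes were not detectable, and larger ones could miss the threshold too, as SPRED2 did at 0.63 with si-circ235-2 (edgeR adjusted p = 0.0665). The number of called members stayed at 1, 1 and 2 (si-circ235-1 against NC, si-circ235-2 against NC, and between the siRNAs) with DESeq2, no filter, 2 conditions alone and the replicate block. Without TMM factors it was 0, 2 and 3, and it was 3, 2 and 5 once the length and GC trend was removed, with or without the replicate block. With 1 library left out the counts ranged from 0 to 1, 0 to 2 and 1 to 2. A lone library was assumed to vary like the other conditions. The cause of these changes was not tested. The replicate numbers do not pair the samples in the labels, and deviations of libraries with the same number correlated at -0.094, 0.149 and 0.139. The block on its own changed no call of a member.

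Over all genes 847, 4530 and 5725 were called. For si-circ235-1 against NC this was 1335 with DESeq2, 1678 without the filter, 1642 with 2 conditions alone, 1969 with the trend removed (1294 with the block) and 0 to 1482 with 1 library left out, the 0 being without si-circ235-1 replicate 2. It was 769 for si-circ235-2 without NC replicate 1 and 2817 between the siRNAs without si-circ235-1 replicate 2. Taking out the TMM factors put the all-gene median at -0.11, 0.25 and 0.37 (log2), and the share of calls that were higher went from 38.1%, 50.1% and 53.2% to 25.3%, 71.0% and 75.2%. With the trend removed that share was 60.4%, 43.3% and 42.5%.

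Among the other named genes, calls were also lost without TMM factors for NRAS (0.84, si-circ235-1) and FOSL1 (-0.51, si-circ235-2), and with the block and trend removal together for CIC (-0.84, si-circ235-1) and PHLDA3 (-0.74, si-circ235-2). The following genes, none of them called in the reported fit of that comparison, changed sign. For si-circ235-1 against NC, without TMM factors DUSP6 was at -0.041 and KSR1 at -0.089, and SPRED3 was at 0.094 with the trend removed (0.10 with the block). With 1 library left out DUSP6 ranged from -0.13 to 0.29, SPRED2 from -0.11 to 0.62, ETV4 from -0.031 to 0.45, DUSP7 from -0.026 to 0.55, PHLDA3 from -0.030 to 0.77, KSR1 from -0.34 to 0.53, SPRED3 from -0.44 to 0.10 and SPRY1 from -1.10 to 0.38. For si-circ235-2 against NC, without TMM factors DUSP5 was at 0.22, DUSP6 at 0.17, ETV4 at 0.0055, ETV5 at 0.17 and ETV1 at 0.036. With the trend removed DUSP4 was at -0.42, DUSP5 at 0.17, SPRY4 at -0.19 and ETV4 at 0.22, and with the block as well at -0.42, 0.17, -0.18 and 0.22. With 1 library left out DUSP4 ranged from -0.36 to 0.69, DUSP5 from -0.15 to 0.075, DUSP6 from -0.26 to 0.13, ETV4 from -0.50 to 0.018, ETV5 from -0.17 to 0.031 and SPRY1 from -0.078 to 0.91. Between the siRNAs, without TMM factors DUSP6 was at 0.21 and SPRY4 at 0.19, both called lower with the trend removed, and SPRED1 was at 0.21 and EREG at 0.14. With the trend removed SPRED2 was at -0.11, PHLDA1 at -0.22 and EREG at 0.022, and with the block as well at -0.10, -0.23 and 0.022. With 1 library left out SPRED1 ranged from -0.27 to 0.016 and EREG from -0.49 to 0.14.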
